A study of Mus musculus with 6 samples.

Results

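The genes described here are Atf4 and 9 of its known target genes, 10 genes in all: Ddit3, Trib3, Chac1, Phgdh, Psat1, Shmt2, Mthfd2, Asns and Sesn2. They were listed by name, and each was read as the sum of the counted UCSC transcript identifiers whose exons in build mm10 match the gene on its strand. All 10 were among the 24913 genes that the counted identifiers could be matched to, 9 had counted reads and 9 passed the filter on low counts. Reads in exons shared by several identifiers were not counted, and an exonic base is called countable where a single identifier covers it. RNA was sequenced from collecting duct cells of male C57BL/6J mice fed for 5 days a diet with 0.01 to 0.02% sodium (low-NaCl, 3 libraries) or with 2.4% sodium (high-NaCl, 3 libraries), and the labels name no other treatment. The labels do not state how the cells were isolated or whether each library is a separate animal, so every p-value measures the spread between libraries, which may be technical. Per its title, the study set out to find transcripts induced by aldosterone, the hormone of sodium retention, which a low sodium intake raises.

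ATF4 is the transcription factor of the integrated stress response. In that response the kinases PERK, GCN2, PKR and HRI phosphorylate the initiation factor eIF2, which slows translation in general and raises the translation of the Atf4 mRNA. ATF4 then binds C/EBP-ATF response elements, often with a C/EBP protein as partner, and raises genes of amino acid synthesis and uptake, of tRNA charging and, under longer stress, of cell death. Much of the control of ATF4 is at translation, which RNA counts do not measure.

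The element was looked for in the promoter windows of RefSeq (build GRCm38.p6, 250 bases before to 50 after each annotated start, with positions counted from 0 at the start), with the core letters TGATGNAA on either strand. All 10 members had a window, and 3 of the 10 held the element, against 4.51% of 27025 genes with a window of this length and 2.74% of 8114 tested genes with one. These 3 are shown with 3 further genes of the pathway that changed with the diet and held it too. Each run reads 5′ to 3′ on the strand of the gene, and capitals mark the element. On that strand the Asns element reads TGATGAAA, and the other 5 lie on the opposite strand, so that TGATGCAA appears as TTGCATCA and TGATGTAA as TTACATCA.
Chac1 (chr2:119351023-119351082, plus strand, element at bases -193 to -186 from the start): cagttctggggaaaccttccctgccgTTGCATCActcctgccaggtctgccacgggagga
Asns (chr6:7693214-7693243, minus strand, bases -23 to -16): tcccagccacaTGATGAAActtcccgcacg
Trib3 (chr2:152344028-152344057, minus strand, bases 14 to 21): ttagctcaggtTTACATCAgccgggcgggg
Nupr1 (chr7:126625562-126625591, minus strand, bases -110 to -103): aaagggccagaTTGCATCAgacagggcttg
Slc1a4 (chr11:20332699-20332728, minus strand, bases -4 to 3): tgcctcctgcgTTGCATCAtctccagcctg
Pck2 (chr14:55540137-55540196, plus strand, bases -103 to -96): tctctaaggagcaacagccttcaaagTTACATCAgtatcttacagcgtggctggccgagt
A match is a description of letters and not a measured binding site. No member held the cyclic AMP response element TGACGTCA, which 3.41% of the tested genes held, or the endoplasmic reticulum stress element described further on.

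Depth was 40101899 to 46861531 counted reads per library. Collecting duct markers were abundant: summed over 10 principal cell markers they lay between 4813 and 6603 CPM (counts-per-million, scaled between libraries) on the low-NaCl and between 10020 and 12519 CPM on the high-NaCl diet, and over 12 intercalated cell markers between 3060 and 5893 and between 1954 and 2337 CPM. Of the principal cell markers Scnn1g, Aqp3 and Aqp2 were 2.42-fold, 2.41-fold and 2.43-fold lower on the low-NaCl diet, and of the intercalated cell markers Hmx2, Foxi1 and Atp6v1g3 were 2.62-fold, 2.64-fold and 2.74-fold higher. Not all principal cell markers lay lower: of 9 tested, 3 fell, 7 had a log2 fold change below 0 and 2 above it, and Scnn1a had all low-NaCl libraries above all high-NaCl libraries (0.56, adjusted p = 0.155; named after its values were seen). A term for lane ended the calls of all 6 markers (adjusted p from 0.244 to 0.361) and moved Foxi1 from 1.40 to 0.78 on the log2 scale. Leaving out 1 library ended the call of Aqp2 in 4 of 6 cases, of Atp6v1g3 in 3, of Scnn1g, Aqp3 and Foxi1 in 1 each and of Hmx2 in none. Dropping the libraries over 25% mitochondrial counts ended the calls of Aqp2, Foxi1 and Atp6v1g3 (0.121, 0.131 and 0.336), and total-count scaling that of Aqp3 (0.0545). Both sums separated the diets, and the part of this shift in the members' differences was not tested. Thick limb and distal convoluted tubule markers summed to 441 to 545 against 292 to 350 CPM, with Slc12a1 1.89-fold higher (a log2 fold change of 0.92, but -0.10 with identifiers matched by identical introns only), and stroma and podocyte markers to 12.2 to 44.5 against 21.7 to 43.8 CPM. Slc12a1 had only 24.5% of its exonic bases countable. All 5 tested thick limb and distal convoluted tubule markers were under 50% countable. So were 5 of 9 tested principal cell and 2 of 11 tested intercalated cell markers, which limits these sums. In such bulk libraries fewer cells of a type and less RNA per cell cannot be told apart. The summed levels were at most 0.727 CPM for 8 immune markers, of which Ptprc, Cd68 and Adgre1 had no counted read, and 0.401 to 1.79 against 3.15 to 3.38 CPM for 6 endothelial markers, of which Pecam1, Emcn and Tek had none. Mitochondrial reads made up 20.5 to 21.8% of counts on the low-NaCl diet and 21.9, 28.7 and 29.9% in high-NaCl libraries 2, 3 and 1. High-NaCl library 2 stood apart from the other 2 of its diet: the chi-square of their counts over genes, divided by its degrees of freedom, was 221 and 134, against 43.8 between those 2. Low-NaCl library 1 also differed more from the other 2 of its diet, at 78.2 and 66.001 against 34.5 between them. Per the file headers, both libraries numbered 1 ran on lane 1, the other low-NaCl libraries on lane 2 and the other high-NaCl libraries on lane 3, so only the libraries numbered 1 can be compared within a lane. A term for lane therefore takes the diet difference from the libraries numbered 1 alone. A call lost under it cannot tell an effect of lane from the loss of libraries.

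On the low-NaCl diet Ddit3, which encodes the stress transcription factor CHOP, rose 1.64-fold, and it was the only member to pass the test. Of the 9 tested members 1 rose and none fell, where 1.72% of 10564 tested genes rose and 1.74% fell (3.46% in either direction). At an unadjusted p below 0.05, 5 members lay higher (Atf4, Ddit3, Chac1, Phgdh and Mthfd2) and 1 lower (Sesn2), against 9.17% and 9.13% of all tested genes. In 3 members, Atf4, Ddit3 and Phgdh, all low-NaCl libraries lay above all high-NaCl libraries, and in none below, against 12.3% and 11.6% of the tested genes. The median log2 fold change, low-NaCl minus high-NaCl, was 0.48 over the 9 members and -0.002 over all tested genes. DESeq2, run without the filter on low counts, called 4 members higher, Atf4, Ddit3, Phgdh and Mthfd2, and 2.41% of its 16535 genes. That share is taken over more genes with few reads than the 1.72% of edgeR.

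**Figure D1:**
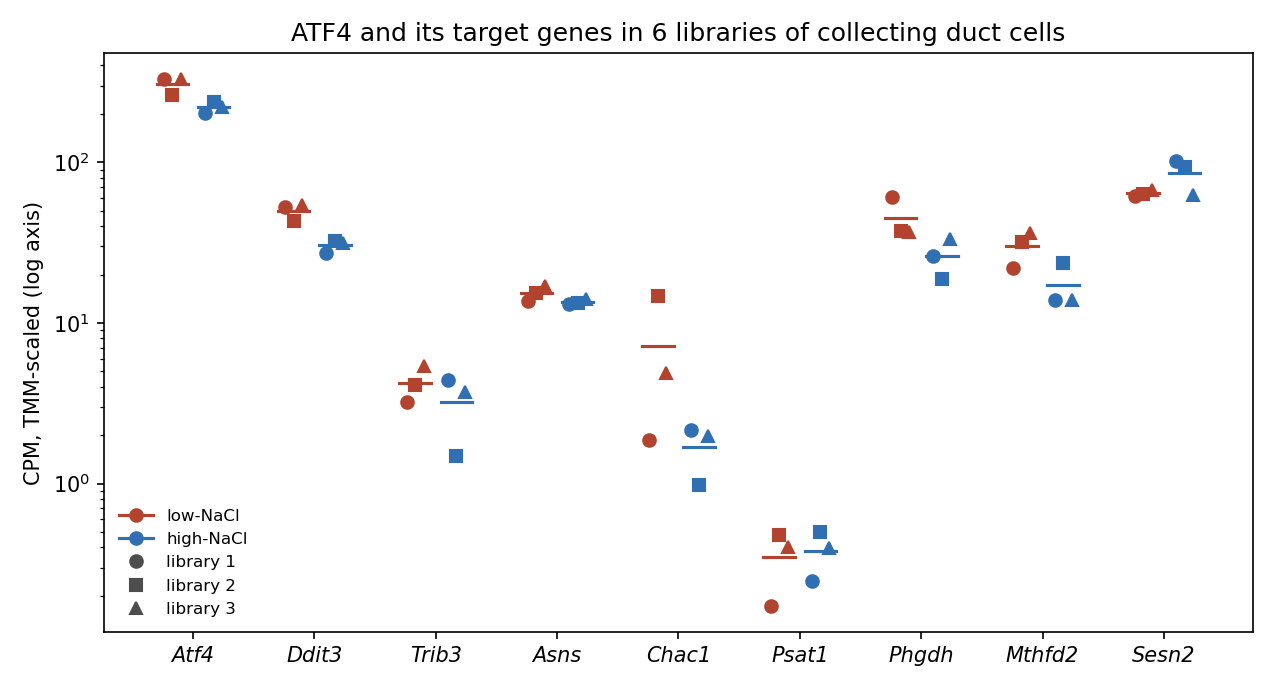
CPM of 9 members (vertical log axis) in each of the 6 libraries, low-NaCl in red and high-NaCl in blue, with the library number as the symbol and the diet mean as a line; Shmt2, with no counted read, is left out. The diets separate in Atf4, Ddit3 and Phgdh, and Chac1 spreads from 1.86 to 14.8 CPM among the low-NaCl libraries.

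Atf4 itself (chromosome 15, 80255184 to 80257541, all of its exonic bases countable) measured 328, 261 and 327 CPM in low-NaCl libraries 1, 2 and 3 and 203, 236 and 220 CPM in high-NaCl libraries 1, 2 and 3. The diets did not overlap, and the lowest low-NaCl value, library 2, lay close above the highest high-NaCl value, also library 2. The means of 305 ± 38.6 and 219 ± 16.5 CPM (SD, n = 3) gave a log2 fold change of 0.48 ± 0.15 (SE), which did not pass (adjusted p = 0.120, edgeR's quasi-likelihood test with Benjamini-Hochberg adjustment, as for all adjusted p-values below unless another tool is named). Its 95% interval runs from 1.11-fold to 1.75-fold higher. Within lane 1 the log2 difference was 0.69.

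Ddit3 (chromosome 10, 127290774 to 127296288, 92.2% countable) encodes CHOP, a partner of C/EBP proteins that ATF4 raises and that takes part in stress-induced cell death. It measured 52.5, 43.4 and 53.9 CPM in low-NaCl libraries 1, 2 and 3 and 27.3, 32.3 and 31.6 CPM in the high-NaCl libraries. Every low-NaCl value lay above every high-NaCl value, with library 2 again the lowest of the low-NaCl and the highest of the high-NaCl libraries, as for Atf4. The means of 49.9 ± 5.69 and 30.4 ± 2.69 CPM gave a log2 fold change of 0.71 ± 0.14 (adjusted p = 0.0287, 95% interval 1.32-fold to 2.04-fold). The difference was 0.94 within lane 1. The call was lost when any 1 library other than high-NaCl library 2 was left out (adjusted p from 0.0525 to 0.116), under a term for lane (0.244), under total-count scaling (0.0767) and when both libraries over 25% mitochondrial counts were dropped (0.175). Over the 21 alternatives its log2 fold change lay between 0.61 and 0.94.

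Chac1 (chromosome 2, 119351229 to 119354381, all bases countable) encodes an enzyme that degrades glutathione and is a target of ATF4 and CHOP. It had the widest range of the members, 1.86, 14.8 and 4.88 CPM in low-NaCl libraries 1, 2 and 3 against 2.15, 0.975 and 1.97 CPM in the high-NaCl libraries. Low-NaCl library 2 held 68.6% of the sum of its diet, and low-NaCl library 1 lay within the high-NaCl range. The means were 7.17 ± 6.74 against 1.70 ± 0.631 CPM and the log2 fold change 2.09 ± 0.64 (adjusted p = 0.113, 95% interval 1.59-fold to 11.5-fold higher). With low-NaCl library 1 left out the difference grew to 2.55 and passed (adjusted p = 0.0170), without low-NaCl library 2 it was 1.004 (adjusted p = 0.423), and a term for lane turned it to -0.20 (adjusted p = 0.933). It was 2.87 without the libraries over 25% mitochondrial counts (adjusted p = 0.596).

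Trib3 (chromosome 2, 152337422 to 152344032, all bases countable), a pseudokinase that ATF4 and CHOP raise and that in turn restrains them, measured 3.21, 4.10 and 5.38 CPM in the low-NaCl and 4.40, 1.49 and 3.72 CPM in the high-NaCl libraries. The diets overlapped, and the lowest value of all was that of high-NaCl library 2. The log2 fold change was 0.41 ± 0.37 (adjusted p = 0.610), with an interval from 0.748-fold to 2.36-fold, and it was 0.06 without high-NaCl library 2, -0.46 under a term for lane and 1.48 without the libraries over 25% mitochondrial counts (adjusted p = 0.121).

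Of the 4 serine and one-carbon genes, Phgdh and Mthfd2 were well counted, and Psat1 and Shmt2 were not. Phgdh (chromosome 3, 98313170 to 98339990, all bases countable) encodes the first enzyme of serine synthesis from a glycolytic intermediate. It measured 61.1, 37.2 and 36.9 CPM in low-NaCl libraries 1, 2 and 3 and 26.05, 18.7 and 33.3 CPM in the high-NaCl libraries. The diets did not overlap, although high-NaCl library 3 came within a few CPM of low-NaCl libraries 2 and 3. The means were 45.1 ± 13.9 against 25.99 ± 7.30 CPM and the log2 fold change 0.80 ± 0.25, which did not pass (adjusted p = 0.125, interval 1.18-fold to 2.56-fold higher), and the difference within lane 1 was 1.23.

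Serine synthesis genes are also active in other parts of the kidney tubule, so the 12 proximal tubule markers were read beside Phgdh. Aqp1, a water channel of the proximal tubule and of the descending thin limb, made up 96.6 to 99.4% of their sum, at 3447, 1705 and 2631 CPM in low-NaCl libraries 1, 2 and 3 and 1538, 939 and 2170 CPM in the high-NaCl libraries. Within each diet the library with the most Aqp1 also had the most Phgdh, low-NaCl library 1 and high-NaCl library 3, and high-NaCl library 2 had the least of both. Low-NaCl libraries 2 and 3 had like Phgdh levels at 1705 and 2631 CPM of Aqp1. The other 11 proximal tubule markers summed to only 21.4 to 39.6 CPM, and their lowest sum was in low-NaCl library 1, where Phgdh was highest. The log2 fold change of Aqp1 was 0.74 (adjusted p = 0.264), and the part of other tubule cells in the Phgdh difference was not tested.

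**Figure D2:**
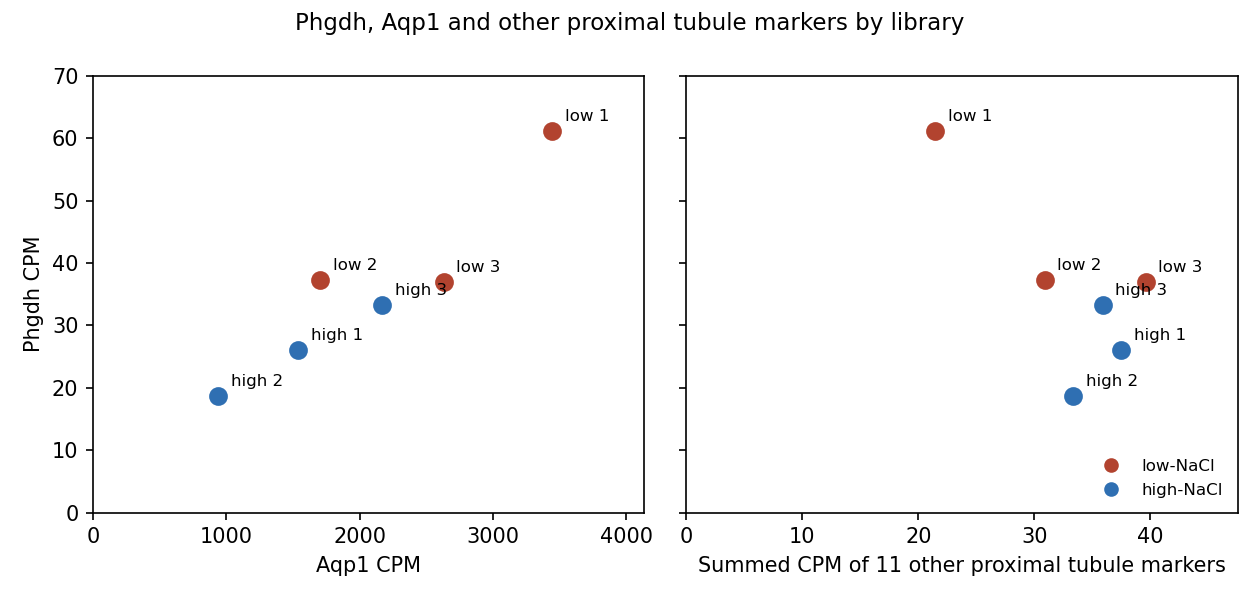
Phgdh CPM (vertical axis) against Aqp1 CPM (left) and the summed CPM of 11 other proximal tubule markers (right), 1 point per library, low-NaCl in red and high-NaCl in blue. Phgdh is highest, 61.1 CPM, in the library with the most Aqp1, 3447 CPM, which has the lowest sum of the other markers, 21.4 CPM.

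Mthfd2 (chromosome 6, 83305691 to 83325908, all bases countable), the mitochondrial folate enzyme that passes on the one-carbon unit taken from serine, measured 21.9, 32.0 and 36.4 CPM in low-NaCl libraries 1, 2 and 3 and 13.9, 23.4 and 14.0 CPM in the high-NaCl libraries. High-NaCl library 2 alone reached into the low-NaCl range, just above low-NaCl library 1. From means of 30.1 ± 7.44 and 17.1 ± 5.50 CPM the log2 fold change was 0.82 ± 0.25 (adjusted p = 0.115, interval 1.19-fold to 2.59-fold higher), and the difference within lane 1 was 0.66. The difference was 1.11 and passed without high-NaCl library 2 (adjusted p = 0.0215), 0.66 without low-NaCl library 3 (adjusted p = 0.331), and 0.35 without the libraries over 25% mitochondrial counts (adjusted p = 0.633).

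Psat1 (chromosome 19, 15904678 to 15947337), the aminotransferase that follows Phgdh in serine synthesis, had 28.8% of its exonic bases countable over 3 overlapping identifiers and only 7 to 26 reads per library. It measured 0.174, 0.478 and 0.401 CPM in the low-NaCl and 0.248, 0.497 and 0.399 CPM in the high-NaCl libraries, which overlapped throughout. Its log2 fold change was -0.13 ± 0.50 (adjusted p = 0.920), with an interval from 0.422-fold to 1.98-fold, so changes within that range are not excluded. Shmt2 (chromosome 10, 127517123 to 127522444), the mitochondrial enzyme that splits serine into glycine and a one-carbon unit, had no counted read in any library. Its 2 identifiers share all but 9 of their exonic bases, and reads in shared exons were not counted, so the 0 says nothing of its level.

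Asns (chromosome 6, 7675169 to 7693254, all bases countable), asparagine synthetase, varied least among the members with the element. It measured 13.7, 15.3 and 16.9 CPM in low-NaCl libraries 1, 2 and 3 and 13.0, 13.3 and 14.2 CPM in the high-NaCl libraries, with low-NaCl library 1 inside the high-NaCl range. The log2 fold change was 0.18 ± 0.15 (adjusted p = 0.583), with an interval from 0.895-fold to 1.43-fold.

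Sesn2 (chromosome 4, 132492032 to 132510501, 85.2% countable) encodes sestrin 2, a leucine sensor that restrains the growth kinase complex mTORC1 and a target of p53 as well as ATF4. It was the only well-counted member with a negative log2 fold change. It measured 61.7, 63.2 and 67.6 CPM in the low-NaCl and 102, 93.7 and 62.5 CPM in high-NaCl libraries 1, 2 and 3. High-NaCl library 3 lay among the low-NaCl libraries and the other 2 well above them. The log2 fold change was -0.42 ± 0.18 (adjusted p = 0.246, unadjusted p = 0.0405), it was -0.72 within lane 1, and it stayed between -0.72 and -0.29 over the 21 alternatives.

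Levels can be compared between members only per length, here as CPM per kilobase of countable exon. On the low-NaCl diet the order was Atf4 (177 ± 22.4), Ddit3 (62.1 ± 7.09), Sesn2 (28.4 ± 1.35), Phgdh (24.1 ± 7.43), Mthfd2 (14.6 ± 3.60), Asns (7.94 ± 0.815), Chac1 (4.56 ± 4.29), Trib3 (2.06 ± 0.532) and Psat1 (0.440 ± 0.198). The ranges of neighbours in this order overlapped for Sesn2 and Phgdh, for Asns and Chac1 and for Chac1 and Trib3. On the high-NaCl diet Atf4 again stood first (127 ± 9.59), and Sesn2 (38.01 ± 9.16) and Ddit3 (37.9 ± 3.35) did not differ beyond their spread. Phgdh, Mthfd2 and Asns followed with overlapping ranges between neighbours, then Trib3, Chac1 and Psat1, also overlapping. The place of Psat1 in both orders is not informative. Its reads fell almost only on an identifier with 196 of its 798 countable bases. Its identifiers with 283 and 319 countable bases held 2 reads and 0 reads.

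Further genes of the response were read from 6 lists that hold 89 genes, of which 71 could be tested. Of these 2 rose (2.82%) and 1 fell (1.41%), shares close to those of all tested genes, and their median log2 fold change was 0.16. At an unadjusted p below 0.05, 11 of the 71 lay higher and 3 lower, against 9.17% and 9.13% of all tested genes. In 16 all low-NaCl libraries lay above all high-NaCl libraries and in 4 below, against 12.3% and 11.6%. The difference from all tested genes was not tested. Of the 12 tested genes that control eIF2 0 passed in edgeR, 0 also at an unadjusted p below 0.05, and 0 in DESeq2 and limma-voom, with a median of 0.03. Among them Ppp1r15a, the stress-induced subunit that directs a phosphatase to eIF2, measured 0.273, 0.341 and 0.377 CPM on the low-NaCl and 0.138, 1.66 and 0.745 CPM on the high-NaCl diet, with 24.7% of its bases countable (log2 fold change -1.38 ± 0.69, adjusted p = 0.330). For Eif2s1, which encodes the subunit of eIF2 that is phosphorylated, it was 0.24 ± 0.12 (adjusted p = 0.337), with no overlap between the diets.

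Of 7 tested transcription factors that act beside ATF4, 1 rose. Nupr1, a small stress-induced chromatin protein and ATF4 target, measured 47.4, 63.3 and 75.2 CPM in the low-NaCl and 21.8, 24.9 and 36.0 CPM in the high-NaCl libraries. All low-NaCl values lay above all high-NaCl values, and the rise was 2.25-fold (log2 fold change 1.17 ± 0.22, adjusted p = 0.0257). The call was lost when low-NaCl library 2, low-NaCl library 3, high-NaCl library 1 or high-NaCl library 2 was left out (0.053 to 0.0893), under total-count scaling (0.0531), under a term for lane (0.257) and when the libraries over 25% mitochondrial counts were dropped (0.0681). Atf3, a textbook partner, had no counted read in any library and 7.92% of its bases countable.

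None of 13 tested enzymes of amino acid synthesis and folate metabolism passed in edgeR (4 higher and 1 lower at an unadjusted p below 0.05) or limma-voom, and DESeq2 called 1, Got1. Got1, the cytosolic aspartate aminotransferase, measured 614, 604 and 604 CPM on the low-NaCl and 412, 393 and 467 CPM on the high-NaCl diet (log2 fold change 0.52 ± 0.14, adjusted p = 0.0797), with diets apart. Aldh1l2, a mitochondrial folate enzyme, measured 4.45, 9.99 and 25.3 CPM against 5.58, 3.40 and 5.16 CPM. As for Chac1, low-NaCl library 1 lay within the high-NaCl range, here with library 3 the highest instead of library 2, and the log2 fold change was 1.49 ± 0.51 (adjusted p = 0.154), 1.89 without low-NaCl library 1 (adjusted p = 0.0198), 0.62 without low-NaCl library 3 and -0.33 under a term for lane.

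Of 8 tested amino acid transporters 1 rose, Slc1a4, which carries alanine, serine, cysteine and threonine. It measured 2.11, 2.71 and 4.01 CPM in the low-NaCl and 0.908, 0.975 and 1.06 CPM in the high-NaCl libraries. The lowest low-NaCl library held more than the highest high-NaCl library, and the rise was 2.99-fold (log2 fold change 1.58 ± 0.29, adjusted p = 0.0231). Leaving out low-NaCl library 2, low-NaCl library 3, high-NaCl library 1 or high-NaCl library 3 ended its call (0.0673 to 0.0832), as did a term for lane (0.386) and dropping the libraries over 25% mitochondrial counts (0.152).

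No gene passed in edgeR among 14 tested cytosolic tRNA synthetases, which charge tRNAs with amino acids (2 higher and 0 lower at an unadjusted p below 0.05). DESeq2 called 1, Iars, and limma-voom none. Of the 14, 12 had a log2 fold change above 0, against 5262 of all 10564 tested genes, and their median was 0.21. Iars, for isoleucine, measured 67.4, 80.5 and 76.7 CPM against 47.7, 54.5 and 58.1 CPM, with diets apart (log2 fold change 0.49 ± 0.13, adjusted p = 0.0829). Aars, for alanine, also had its diets apart, with a difference of 0.32 ± 0.14 on the log2 scale (adjusted p = 0.258).

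Of 17 tested other targets, among them genes of growth control, autophagy, secretion and cell death, 1 fell in edgeR and none rose. At an unadjusted p below 0.05, 1 lay higher and 2 lower. DESeq2 called 2 lower, Bbc3 and Pck2, and limma-voom 1, Pck2. Pck2, mitochondrial phosphoenolpyruvate carboxykinase, measured 6.51, 5.46 and 7.17 CPM in the low-NaCl and 15.9, 12.4 and 10.99 CPM in the high-NaCl libraries. Every low-NaCl value lay below every high-NaCl value, and the gene fell 2.05-fold (log2 fold change -1.04 ± 0.20, adjusted p = 0.0259). Only 27.5% of its exonic bases could be counted. The call did not survive the loss of low-NaCl library 2, low-NaCl library 3, high-NaCl library 1 or high-NaCl library 3 (0.0557 to 0.117), total-count scaling (0.0619), a term for lane (0.241) or the loss of the libraries over 25% mitochondrial counts (0.108).

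**Figure D3:**
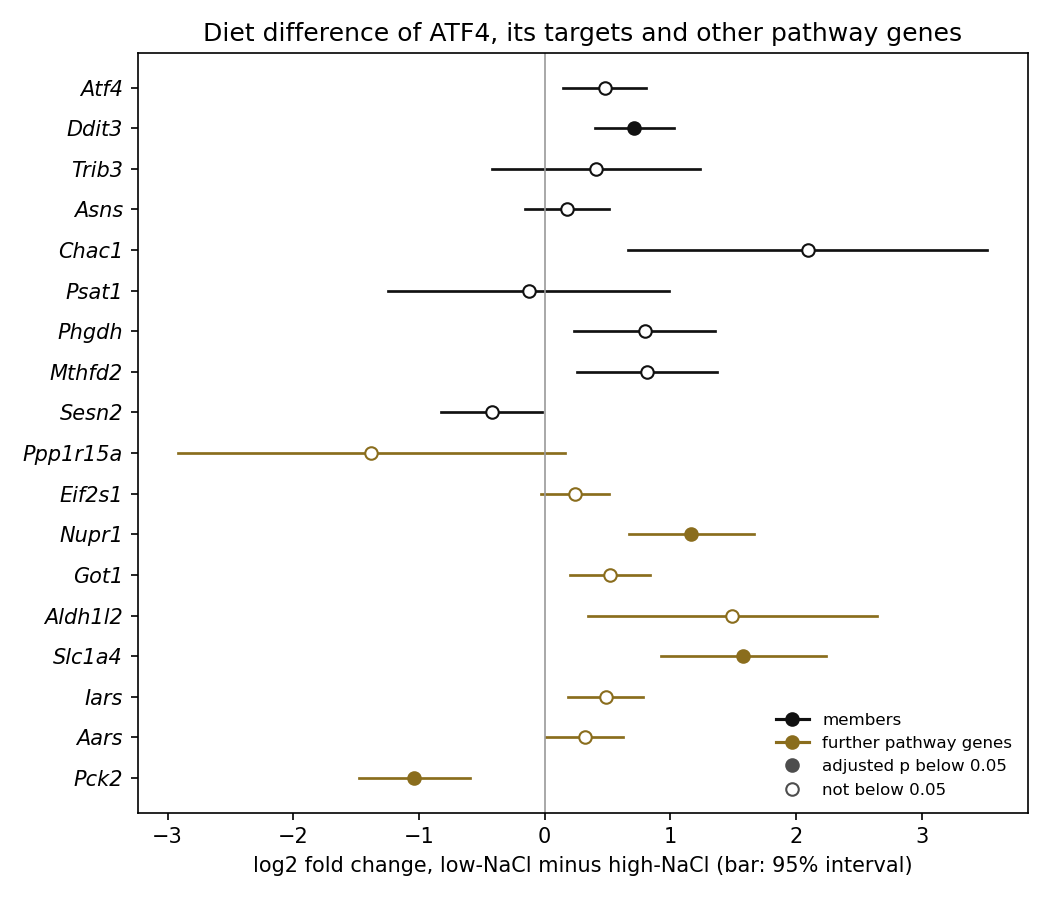
Log2 fold changes, low-NaCl minus high-NaCl, with 95% intervals (horizontal axis) of the 9 tested members in black and of the named genes of the 6 further lists in brown; filled points have an adjusted p below 0.05. Ddit3, Nupr1 and Slc1a4 are filled to the right of 0 and Pck2 to the left, and the interval of Chac1 is the widest of the members.

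The other stress genes give these values a scale. The endoplasmic reticulum list held chaperones and folding enzymes, which the ATF6 and XBP1 branches raise, and also Herpud1, Xbp1, Atf6 and Ern1. Of its 18 genes 12 could be tested, and 3 had no counted read. Of the 12 tested, 7 rose and 0 fell, and all 12 had diets apart. Their median log2 fold change was 0.86 against 0.48 for the ATF4 members. Both lists were known from earlier results of these data, and the difference between the medians was not tested. Dnajb9, the smallest of the 5 rises named here, was 1.91-fold higher (adjusted p = 0.00854), and Pdia4, Creld2, Sdf2l1 and Manf were 2.75-fold, 3.58-fold, 3.65-fold and 4.52-fold higher. Manf had only 13.0% of its exonic bases countable. A term for lane ended all 5 calls (adjusted p from 0.178 to 0.257), and that of Pdia4 also ended without high-NaCl library 3 (0.0505) or the libraries over 25% mitochondrial counts (0.0742). The element of those branches is CCAAT with CCACG 9 bases after it, on either strand. It was held by 7 of the 15 genes of this list with a window (46.7%), tested or not. None of the 10 members and 0.136% of tested genes held it. It is shown for Creld2, on the opposite strand from the gene, in capitals.
Creld2 (chr15:88819494-88819564, plus strand, bases -126 to -108 from the start): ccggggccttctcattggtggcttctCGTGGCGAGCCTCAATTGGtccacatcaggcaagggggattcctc

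Of 7 tested mitochondrial chaperones and proteases 1 rose, Hspe1, the co-chaperonin of Hspd1 (1.52-fold, adjusted p = 0.0448). It lost its call when any 1 of the 6 libraries was left out (adjusted p from 0.0522 to 0.183). Of the other 15 alternatives 10 called it, and limma-voom (0.0503), identifiers tested singly (0.0529), total-count scaling (0.0577), the loss of the libraries over 25% mitochondrial counts (0.162) and a term for lane (0.299) did not. Immediate early genes, which tissue dissociation also raises, ran the other way, with 8 that fell and 1 that rose among 12 tested and a summed level of 1413 to 1620 against 2486 to 3027 CPM. Fosb was 7.46-fold, Fos 5.59-fold, Ier2 4.05-fold, Nr4a1 3.80-fold and Junb 3.08-fold lower. Junb had 43.6% of its exonic bases countable. A term for lane moved Fos from -2.48 to -1.77 on the log2 scale (adjusted p = 0.126) and ended the calls of Ier2, Nr4a1 and Junb too (0.104, 0.104 and 0.196), while Fosb kept its call (0.0217). The part of the isolation in the members' levels was not tested.

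**Figure D4:**
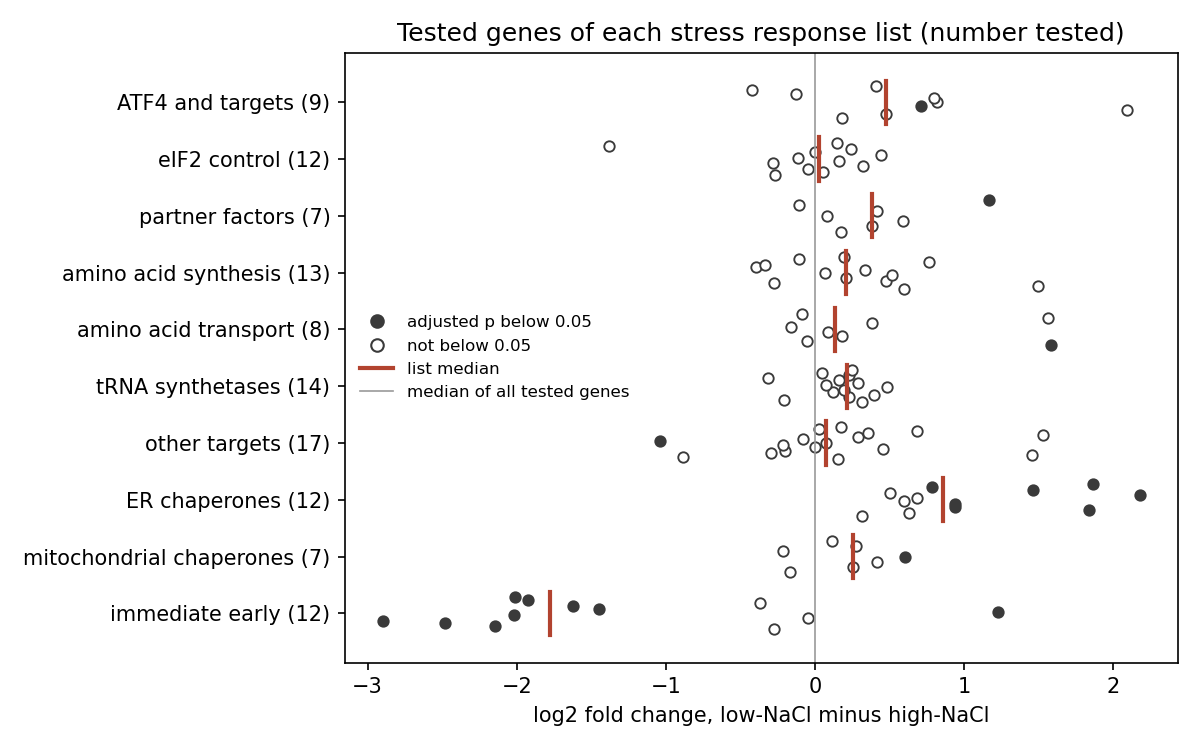
Log2 fold changes, low-NaCl minus high-NaCl (horizontal axis), of the tested genes of each list, 1 point per gene and filled where the adjusted p is below 0.05, with the list median in red and the median of all tested genes as a thin line. The 12 tested genes of the endoplasmic reticulum list all lie above 0, and the 9 ATF4 members spread from -0.42 to 2.09.

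The 5 genes whose log2 CPM followed Ddit3 most closely over the 6 libraries, among 6960 genes whose log2 CPM averaged 1 or more, were Trappc10, Dpp9, Atf4, Cs and Hspe1, with Pearson r between 0.980 and 0.994. For Atf4 itself r was 0.983. Of these only Hspe1 passed the test of the diets, and the difference of Trappc10, 0.17 ± 0.12 on the log2 scale (adjusted p = 0.502), was smaller than that of Ddit3. The 6 points share the split by diet, and r is given as a description.

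Of all tested genes with a window, 222 held the C/EBP-ATF element, a count made after the values of the members were seen. Of these 4 rose (1.80%) and 4 fell (1.80%), shares near the 1.71% and 1.68% of all 8114, and their median log2 fold change was 0.02. Nupr1 and Slc1a4 are 2 of the 4 that rose, and Pck2 is 1 of the 4 that fell. Of the 11 tested genes with the endoplasmic reticulum stress element, 3 rose, Creld2, Pdia6 and Syvn1, none fell, and the median was 0.69. Creld2 and Pdia6 are also in the chaperone list above, in which 7 genes hold this element, so the count is not separate from that list.

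**Figure D5:**
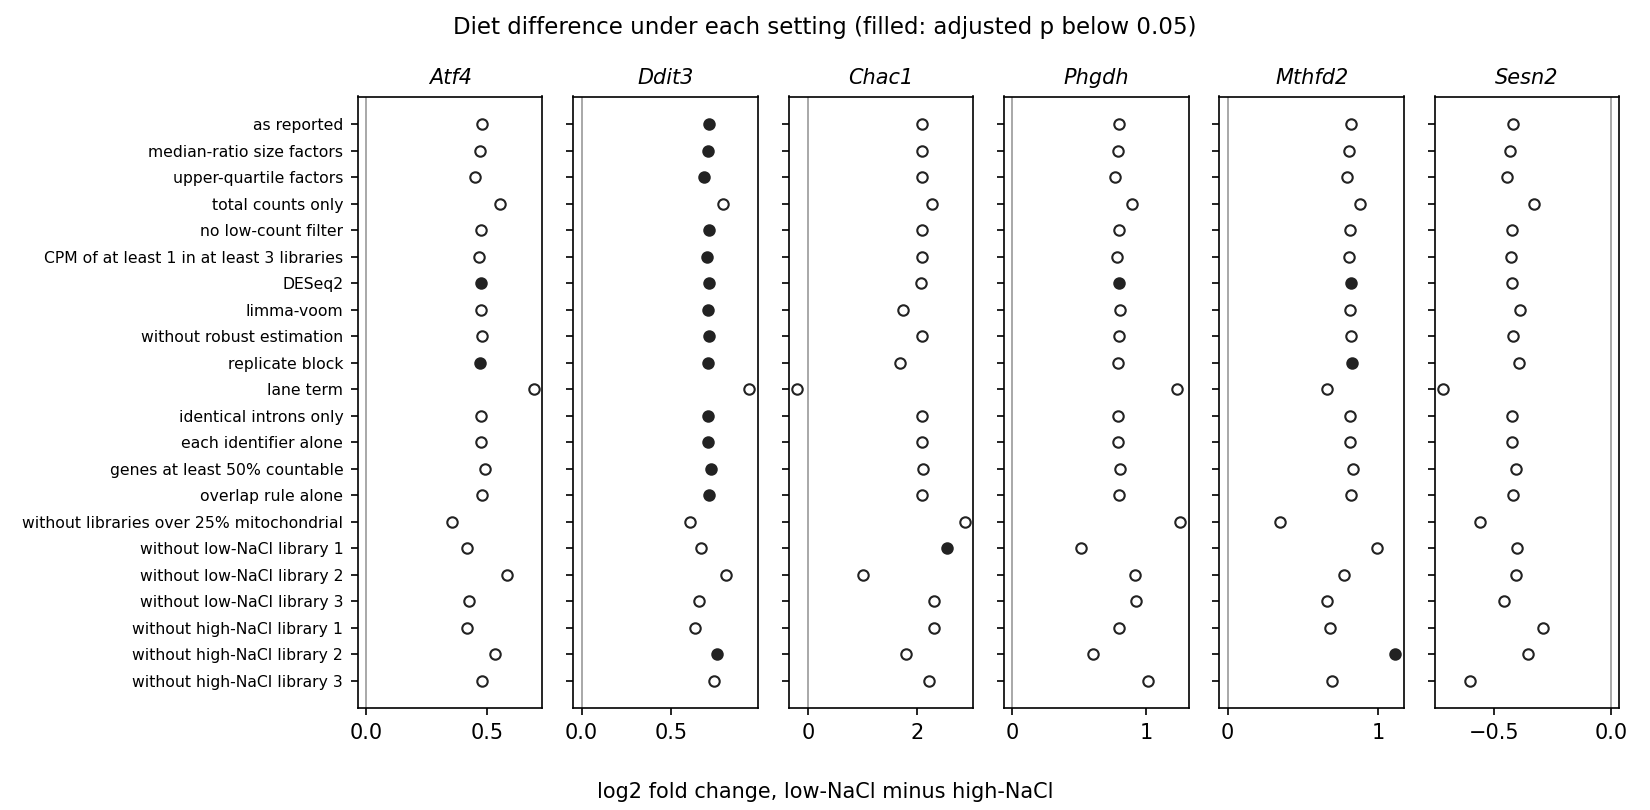
Log2 fold change, low-NaCl minus high-NaCl (horizontal axis of each panel), of 6 members as reported and under 21 alternative settings, 1 per line, with filled points where the adjusted p is below 0.05. Ddit3 is filled in 13 of the 21 alternatives, and Chac1 lies to the left of 0 with the lane term.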

How the data were processed

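The authors deposited raw counts, 1 table per library: per the file headers, featureCounts 1.5.0-p3 counted reads in exons of UCSC transcripts (mm10), and its command line sets neither a strand nor an overlap option. Reads in exons shared by identifiers were therefore not counted. The submitters' processing notes name FastQC, Subread and edgeR; the aligner is not given in the sources used here. In all, 59121 identifiers were read and matched to GENCODE genes by identical introns (41510) or by at least 50% of exonic bases on the same strand (11061) and summed per symbol; identifiers without a match held 5.57% of counts. The countable share is the share of exonic bases covered by a single identifier. All counts made up the library size. Genes were filtered with filterByExpr, scaled by TMM and tested with glmQLFit (robust) and glmQLFTest in edgeR 4.0.16 (R 4.3.3), with Benjamini-Hochberg adjustment over 10564 genes at 0.05, and the procedure was tested on simulated data. The SE was taken from the fold change and F, and the lane 1 difference adds 0.1 CPM. The biological coefficient of variation was 21.57%. Alternatives included DESeq2 1.42.0 and limma-voom (limma 3.58.1). Named were all members, up to 5 called genes of each stress list by p, or else the 2 with the smallest p, and the 5 genes most like the leading member. Aqp1, Atf3, Scnn1a and Syvn1 were named after their values were seen, as were Pdia6 and Bbc3. Of the cell type lists up to 3 called genes by p were named. The members and lists were chosen with earlier results of these data known.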

Additional observations from a re-analysis of the deposited data

How the results depend on the processing

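Against 182 genes higher and 184 lower, 1 member and 0 members, and 2 and 1 of the 71 pathway genes, 21 alternatives were run. Total-count scaling gave 81 and 55 genes, 0 members, and 1 and 0 pathway genes. With no filter on low counts 259 genes were higher and 280 lower, and 2 and 2 pathway genes. With only genes at least 50% countable 154 genes were higher and 140 lower, and 2 and 0 pathway genes. DESeq2 called 398 and 424 genes, 4 members higher, and 4 and 2 pathway genes. The lane term left 1 and 2 genes, 0 members and 0 pathway genes in either direction, and dropping the libraries over 25% mitochondrial counts left 31 and 92 genes, 0 members and 0 pathway genes. That fit keeps 1 high-NaCl library, assumed to vary like the low-NaCl ones. Leaving out each library in turn gave 34 to 292 genes higher and 36 to 254 lower, 0 to 2 members higher, 0 to 4 pathway genes higher and 0 to 2 lower. No member was called lower in any alternative. With the replicate number as a block (replicate block) 465 and 447 genes, 3 members higher (Atf4, Ddit3 and Mthfd2) and 6 and 3 pathway genes passed. The labels do not say that the numbers pair the libraries, so the main fit has no block. The deviations of same-numbered libraries correlated at 0.30, 0.37 and -0.06, and those of unlike-numbered libraries between -0.37 and 0.11. Whether the numbers pair the libraries was not tested. The log2 fold change turned to -0.46 for Trib3, -0.20 for Chac1, 0.98 for Ppp1r15a and -0.33 for Aldh1l2 with the lane term, and to -0.10 for Slc12a1 with identifiers matched by identical introns only. For Psat1 it lay between -0.41 and 0.18 with 1 library left out. With the lane term the diet difference rests on the libraries numbered 1 alone, as lanes 2 and 3 each held a single diet. The cause of the other moves was not tested. Of the values of single genes under the alternatives, 716 kept their direction and side of the threshold, 74 lost a call, 12 gained one and 7 turned. Psat1 rests on 7 to 26 reads per library, and the counting of shared exons limits Psat1, Shmt2, Ppp1r15a and Pck2. It also limits Atf3, Manf, Slc12a1 and Junb, with 7.92%, 13.0%, 24.5% and 43.6% of their exonic bases countable.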

Other observations

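Genes with the C/EBP-ATF element outside all lists were read after the values of the listed genes were seen. Of 206 tested, 2 rose on the low-NaCl diet, 1700016C15Rik and Pdlim3 (0.971%), and 3 fell, Gm15708, Ifitm3 and Slc26a10 (1.46%). Their median log2 fold change was -0.03, and in 12.1% all low-NaCl libraries lay above all high-NaCl libraries, where 11.9% of all 8114 tested genes with a window did. Of 13 tRNA synthetases with a window 5 held the element (38.5%): Aars, Gars, Iars, Tars and Yars. The summed level of the 20 listed synthetases was 1043, 1007 and 1021 CPM in low-NaCl libraries 1, 2 and 3 and 862, 886 and 861 CPM in the high-NaCl libraries, so the sums did not overlap although no synthetase passed in edgeR. The sums of the members (471 to 550 against 381 to 420 CPM) and of the amino acid synthesis list (1739 to 1817 against 1386 to 1573 CPM) did not overlap either. Those of the eIF2 control genes, the factors beside ATF4, the amino acid transporters and the other targets did. A sum is weighted towards abundant genes: the means were 305 and 219 CPM for Atf4 and 608 and 424 CPM for Got1. It therefore does not show that a list rose as a set. How often sums of other gene sets separate the diets was not tested.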
